A study of Mus musculus with 18 samples.

Results

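The comparison is between libraries of wild type mouse marrow cells that are labelled as long-term hematopoietic stem cells. WT Reserve (3 libraries) carries the further label reserve and WT (3 libraries) the plain wild type label. These are 6 of the 18 libraries in the series, chosen by their labels and not by any measured value. The genotype given for the libraries is wild type reserve and wild type. AA465934 and Eif5al3-ps, described at the end, do not follow the genotype labels in the reserve groups, and whether those labels hold was not tested. In the deposited table the columns of both reserve groups are named derarefl, those of WT derarewt_control and those of KO Ctrl derareko_control. The series holds Wnt5a groups beside these controls, so any handling of the control cells cannot be told apart from the reserve label. The labels do not say whether the groups carry different DERARE alleles. A difference in allele cannot be told apart from the reserve label either. The values are FPKM, fragment counts scaled to transcript length and to the library's mapped total, for 44333 genes, of which 12777 reached 1 FPKM in 3 or more of these libraries and were tested. The series also holds mice that lack the DERARE, an element near the Hoxb genes through which retinoic acid acts. From these, KO Reserve (3 libraries) and KO Ctrl (3 libraries) are used here for the same reserve contrast in the other genotype. One gate is described for the series: lineage-negative cells positive for Sca-1 and c-Kit, negative for CD34 and Flk2, and low for CD49b. How the reserve cells were obtained, and the sex, age and number of mice behind a library, are not given in the sources used here, so the p-values measure the spread between libraries, which may be technical. No label names a processing batch, and any batch shared by the 3 WT Reserve libraries cannot be told apart from the reserve label.

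Long-term hematopoietic stem cells are rare cells of the marrow that rebuild all blood lineages after transplantation. Most of them are out of the cell cycle at any time. The labels do not say in which sense reserve is used. Their descendants, the multipotent progenitors, gain Flt3 and CD48 and pass into lymphoid, myeloid and erythroid branches, while the megakaryocyte branch, which makes platelets, shares many surface proteins and transcription factors with the stem cells themselves.

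The depth that the smallest steps of the FPKM values imply was 22300000 to 25500000 fragments in the WT Reserve libraries and 34000000 to 37700000 in the WT libraries, so a transcript of 1 kb needed 0.118 to 0.135 FPKM in WT Reserve and 0.0796 to 0.0882 FPKM in WT to hold 3 fragments. Between 12483 and 13169 genes reached 1 FPKM in a WT Reserve library, against 11881 to 11927 in a WT library. On log2(FPKM + 1), Pearson's r across genes was 0.946 to 0.963 between WT Reserve libraries, 0.971 to 0.973 between WT libraries and 0.806 to 0.826 between a library of each group. Genes are not independent replicates, so these are descriptions. The first principal component of the 6 libraries held 76.2% of the variance and separated the groups, and the second, with 9.18%, separated WT Reserve 2 from WT Reserve 3. Of the transcript lengths, those up to 500 bases had a median log2 difference of 0.40 and those above 4000 bases of -0.16, a tilt that is given again beside the lists of short genes.

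The groups differed over most of the transcriptome. Of the 12777 genes, 4113 were higher in WT Reserve (32.2%) and 3912 were lower (30.6%) at a limma adjusted p below 0.05, 62.8% in all. The values of the groups did not overlap for 67.4% of genes. The median log2 difference over all tested genes was 0.03, so the changes were about as often up as down. A change of at least 2 on the log2(FPKM + 1) scale, which understates the change of low genes, was reached by 564 genes that rose (4.41%) and 484 that fell (3.79%), and at least 3 by 230 (1.8%) and 180 (1.41%). A list with calls in about 62.8% of its members has as many as the whole table, and 45 gene lists are described by counts and medians to be read against these shares. The members of the megakaryocyte and platelet list lay lowest, with a median of -4.03, and those of the list of late neutrophil granule and mature neutrophil genes lay highest, with 3.96. Setting members that were listed at 0 in a whole group to 3 fragments per library moved no list median by more than 0.0171 on the log2 scale.

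**Figure D1:**
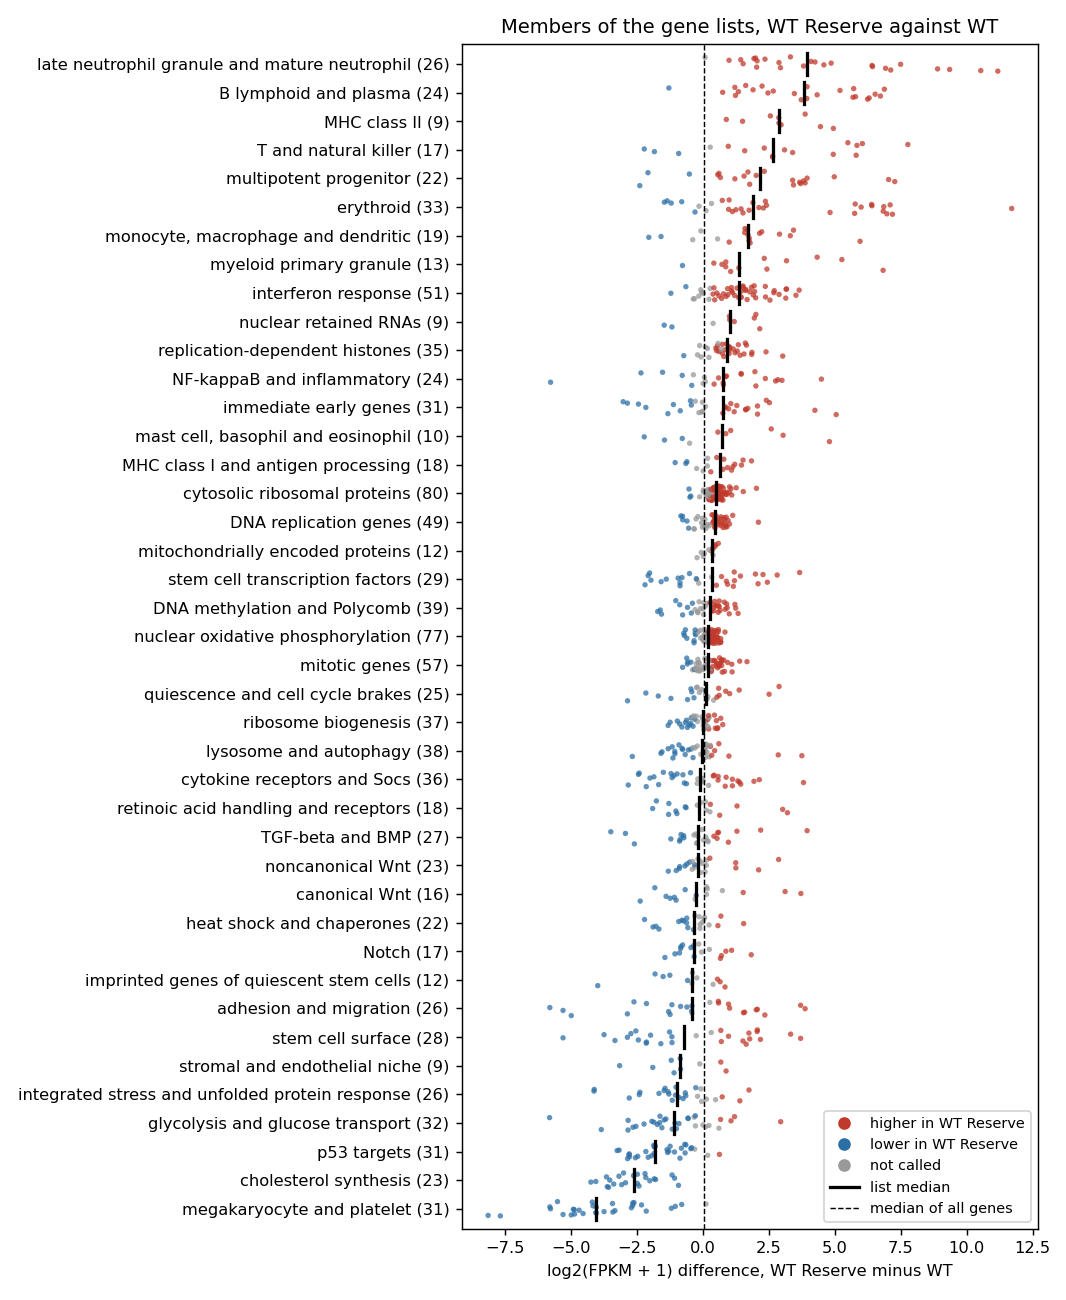
Log2 differences of WT Reserve minus WT on the log2(FPKM + 1) scale, 1 point per gene, for the gene lists with at least 9 tested members (number in brackets), red for genes that rose, blue for genes that fell and grey for no call. List medians (black bars) run from -4.03 (megakaryocyte and platelet) to 3.96 (late neutrophil), beside a median of 0.03 over all 12777 genes (dashed line).

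Transcripts of the gate's own markers were measured first. Both groups expressed Kit, the stem cell factor receptor: Kit had 31.6, 27.04 and 27.8 FPKM in the WT Reserve libraries, against 17.8, 17.8 and 11.6 FPKM in the WT libraries (log2 difference 0.85, SE 0.18, limma adjusted p = 0.00052). Ly6a, which encodes Sca-1, had 169, 191 and 95.5 FPKM in the WT Reserve libraries, against 91.02, 85.8 and 95.7 FPKM in the WT libraries, so the groups overlapped in 1 library (log2 difference 0.68, SE 0.20, limma adjusted p = 0.00655). Cd34, a sialomucin that the gate selects against on the surface, was well above 0 in both groups and lower in WT Reserve. Cd34 had 64.1, 68.3 and 70.8 FPKM in the WT Reserve libraries, against 370.3, 341 and 362 FPKM in the WT libraries (log2 difference -2.38, SE 0.13, limma adjusted p = 7.49e-11). The library kit does not mark strand, so reads of a gene and of a partner on the other strand cannot be separated. Among the genes described here this touches Cd34, Flt3, Cd9, Bcl11a, Fli1, Meis1, Selp, Slc2a1, Mpo, Psmb8, Tap1, Tap2, Tapbp, Dusp1, Bcl3, Txnip, Pfkp, Atp5a1, Eed, Hoxa5, Mrvi1 and Malat1, besides those named beside their values. Flt3, which encodes Flk2 and is likewise selected against, was low in WT and present in every WT Reserve library. Flt3 had 18.7, 12.4 and 15.5 FPKM in the WT Reserve libraries, against 0.412, 0.790 and 0.346 FPKM in the WT libraries (log2 difference 3.44, SE 0.21, limma adjusted p = 1.85e-10). Itga2, which encodes CD49b, was below the filter in both groups, with at most 0.397 FPKM. The transcripts are not the surface proteins, and the share of cells that carried them is not known.

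Genes used to recognise stem cells moved in both directions. Of 28 tested genes of stem cell surface proteins 12 rose and 14 fell, with a median of -0.70, and of 29 stem cell transcription factors 14 rose and 12 fell, with a median of 0.34, which was 0.12 without WT Reserve 1 and -0.19 when only genes with a mean of at least 5 FPKM in either group were tested. Cd48, a SLAM family protein that marks the departure from the stem cell state, rose. Cd48 had 188, 237 and 174 FPKM in the WT Reserve libraries, against 14.6, 13.7 and 14.3 FPKM in the WT libraries (log2 difference 3.71, SE 0.17, limma adjusted p = 3.32e-12). The groups were far apart and even within themselves. Members that fell include the integrins Itgb3 (1.58 FPKM in WT Reserve and 97.9 FPKM in WT) and Itga6 (19.1 FPKM in WT Reserve and 145 FPKM in WT) and the tetraspanins Cd9 (107 FPKM in WT Reserve and 1089 FPKM in WT) and Cd63 (216 FPKM in WT Reserve and 1166 FPKM in WT), with log2 differences of -5.29, -2.85, -3.33 and -2.44. Slamf1 and Procr, the SLAM receptor CD150 and the endothelial protein C receptor, were looked at after their values were seen, as the most used markers of the long-term stem cell. Slamf1 had 12.9, 11.95 and 11.2 FPKM in the WT Reserve libraries, against 38.2, 34.3 and 42.1 FPKM in the WT libraries (log2 difference -1.59, SE 0.19, limma adjusted p = 1.16e-06). Procr had 21.1, 15.7 and 15.6 FPKM in the WT Reserve libraries, against 4.02, 5.44 and 5.17 FPKM in the WT libraries (log2 difference 1.65, SE 0.21, limma adjusted p = 2.88e-06). CD150 transcript was therefore lower and Procr transcript higher in WT Reserve, with no overlap in either.

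Among the transcription factors, the lymphoid regulators Satb1, Bcl11a and Ikzf1 rose. Satb1 had 16.8, 16.3 and 24.1 FPKM in the WT Reserve libraries, against 0.680, 0.605 and 0.377 FPKM in the WT libraries (log2 difference 3.67, SE 0.20, limma adjusted p = 5.31e-11). Bcl11a averaged 48.6 ± 4.36 FPKM in WT Reserve and 6.03 ± 0.7499 FPKM in WT and Ikzf1 averaged 40.3 ± 4.04 FPKM in WT Reserve and 7.47 ± 0.934 FPKM in WT (SD, n = 3 each), with log2 differences of 2.82 and 2.29. Fli1, an ETS factor of stem cells and megakaryocytes, and Mycn fell, to 18.01 FPKM in WT Reserve, against 72.7 FPKM in WT, and to 19.3 against 82.8 FPKM. Some factors of stem cell self-renewal, named after their values were seen, also split. Hlf averaged 12.1 ± 2.17 FPKM in WT Reserve and 4.81 ± 0.225 FPKM in WT (log2 difference 1.16), Mecom 11.3 ± 0.983 FPKM in WT Reserve and 7.67 ± 1.70 FPKM in WT (log2 difference 0.52) and Mllt3 79.02 ± 9.03 FPKM in WT Reserve and 13.7 ± 2.06 FPKM in WT (log2 difference 2.45), higher in WT Reserve in each case. Meis1 averaged 53.5 ± 2.904 FPKM in WT Reserve and 97.7 ± 2.27 FPKM in WT (log2 difference -0.86) and Gata2 13.3 ± 2.89 FPKM in WT Reserve and 63.1 ± 4.22 FPKM in WT (log2 difference -2.19), both lower in WT Reserve. Of the imprinted genes tied to stem cell quiescence, 3 of 12 tested members rose and 5 fell. Dlk1, a Notch ligand relative, had 1.88 FPKM in WT Reserve and 43.5 FPKM in WT (log2 difference -3.98), while Ndn had 15.6 FPKM in WT Reserve and 9.38 FPKM in WT (log2 difference 0.66). Of 25 cell cycle brakes 8 rose and 8 fell. Txnip, which binds thioredoxin, had 223, 212 and 197 FPKM in WT Reserve, against 32.01, 38.99 and 37.2 FPKM in WT (log2 difference 2.52, SE 0.14, limma adjusted p = 4.26e-11), and Cited2 was lower, at 34.6 FPKM in WT Reserve and 113 FPKM in WT (log2 difference -1.68).

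**Figure D2:**
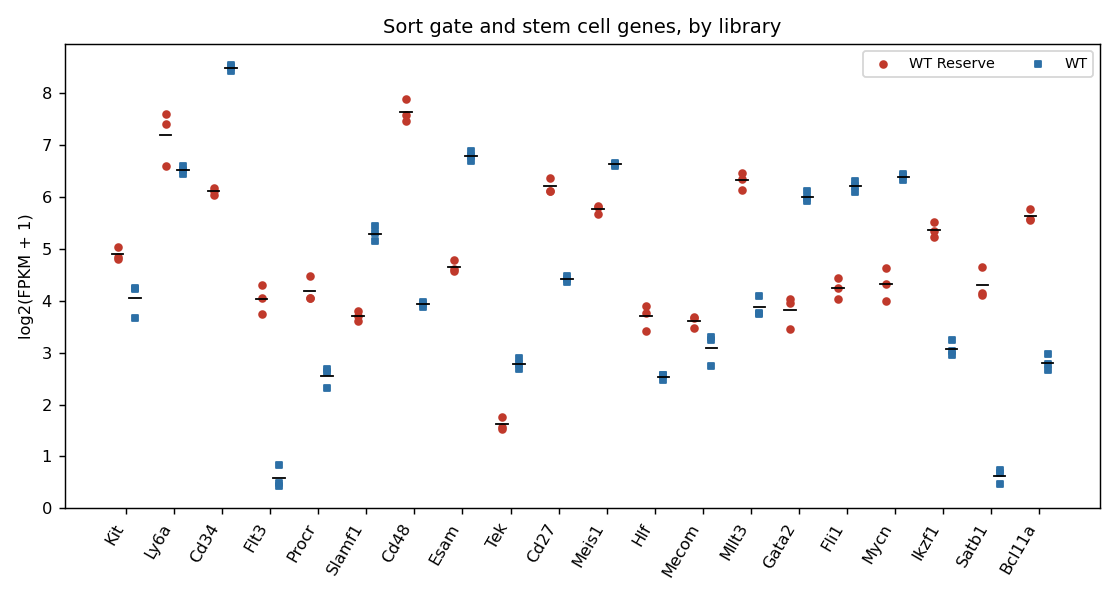
log2(FPKM + 1) of genes of the sort gate and of stem cells in each library, with WT Reserve as red circles left of WT as blue squares and black bars for the group means. Cd48 and Flt3 lie higher in WT Reserve, and Cd34 and Slamf1 lie lower, with no overlap between the groups.

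The lowest list median was that of the platelet lineage. None of the 31 tested members of the megakaryocyte and platelet list rose and 30 fell, and the summed level of the list was 1093, 1119 and 1115 FPKM in the WT Reserve libraries, against 30770, 26820 and 38090 FPKM in the WT libraries. Pf4 (chr5:90772435-90773383, GRCm38), platelet factor 4, was the highest gene of WT once short RNAs and unnamed gene models were left out. Pf4 had 109.6, 114 and 107 FPKM in the WT Reserve libraries, against 21573, 18977 and 28233 FPKM in the WT libraries (log2 difference -7.67, SE 0.32, limma adjusted p = 2.06e-10). Ppbp, which encodes another platelet chemokine, had 2.16, 4.68 and 2.31 FPKM in WT Reserve, against 1176, 872 and 1276 FPKM in WT (log2 difference -8.13, SE 0.52, limma adjusted p = 1.99e-08). The fibrinogen receptor is built from Itga2b and Itgb3. Itga2b had 14.8, 12.7 and 14.8 FPKM in the WT Reserve libraries, against 431, 464 and 538 FPKM in the WT libraries (log2 difference -4.98, SE 0.21, limma adjusted p = 3.78e-12). Itgb3 had 2.19, 0.810 and 1.72 FPKM in WT Reserve, against 91.2, 88.8 and 114 FPKM in WT. Every WT library was far above every WT Reserve library for these genes. Clu averaged 10.8 ± 2.15 FPKM in WT Reserve and 341 ± 26.1 FPKM in WT (SD, n = 3 each), and the thrombin receptor F2r averaged 7.13 ± 0.333 FPKM in WT Reserve and 243 ± 23.2 FPKM in WT, with log2 differences of -4.87 and -4.90. Selp, the P-selectin of platelet granules, had 3.01 FPKM in WT Reserve and 218 FPKM in WT (log2 difference -5.79), and Gp6, the collagen receptor, was listed at 0 in all 3 WT Reserve libraries and averaged 15.8 FPKM in WT. Vwf, von Willebrand factor, which marks platelet-biased stem cells and was named after its values were seen, had 20.4, 13.3 and 18.3 FPKM in WT Reserve, against 239.6, 214 and 270.2 FPKM in WT (log2 difference -3.74, SE 0.23, limma adjusted p = 4.43e-10). The list's only member without a call was Gata1, at 93.9 FPKM in WT Reserve and 84.7 FPKM in WT, the erythroid and megakaryocyte factor. In bulk libraries fewer cells of a type and less RNA per cell cannot be told apart.

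Several of the 15 genes that fell most are outside that list. Serpinb2, a protease inhibitor, was listed at 0 in all 3 WT Reserve libraries and had 205, 196 and 218 FPKM in the WT libraries (limma adjusted p = 2.49e-06). The serotonin transporter Slc6a4 was also listed at 0 in WT Reserve and had 78.4, 70.9 and 83.6 FPKM in WT. Npy, neuropeptide Y, had 0.0930, 0 and 0 FPKM in WT Reserve, against 184, 143 and 251 FPKM in WT (log2 difference -7.52, SE 0.45, limma adjusted p = 3.1e-09). Alox5, the leukotriene-forming lipoxygenase, had 8.296, 3.48 and 6.69 FPKM in WT Reserve, against 436, 404 and 419 FPKM in WT (log2 difference -5.94, SE 0.23, limma adjusted p = 1.94e-12), and Il1b, interleukin-1 beta, averaged 2.98 ± 1.77 FPKM in WT Reserve and 202 ± 50.2 FPKM in WT (log2 difference -5.77), which the antisense gene Il1bos overlaps. Each of these is either near 0 in WT Reserve or many-fold below WT in all 3 libraries. The others outside the list were Timp3, Mrvi1, Rbpms2, Pde6h and the lactate exporter Slc16a3, with log2 differences of -5.68, -5.92, -5.53, -6.55 and -5.80. Pde6h overlaps Arhgdib on the other strand, and Timp3 lies within Syn3, so their reads are uncertain. Of the 9 tested endothelial and stromal genes 2 rose and 6 fell, and 1 rose when WT 1, WT 3, WT Reserve 1 or WT Reserve 2 alone was left out. The receptors Flt1 (0.0323 FPKM in WT Reserve and 8.32 FPKM in WT) and Kdr (0.361 FPKM in WT Reserve and 4.05 FPKM in WT) were lower, and vimentin (Vim) was higher, at 99.5 FPKM in WT Reserve and 53.6 FPKM in WT.

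**Figure D3:**
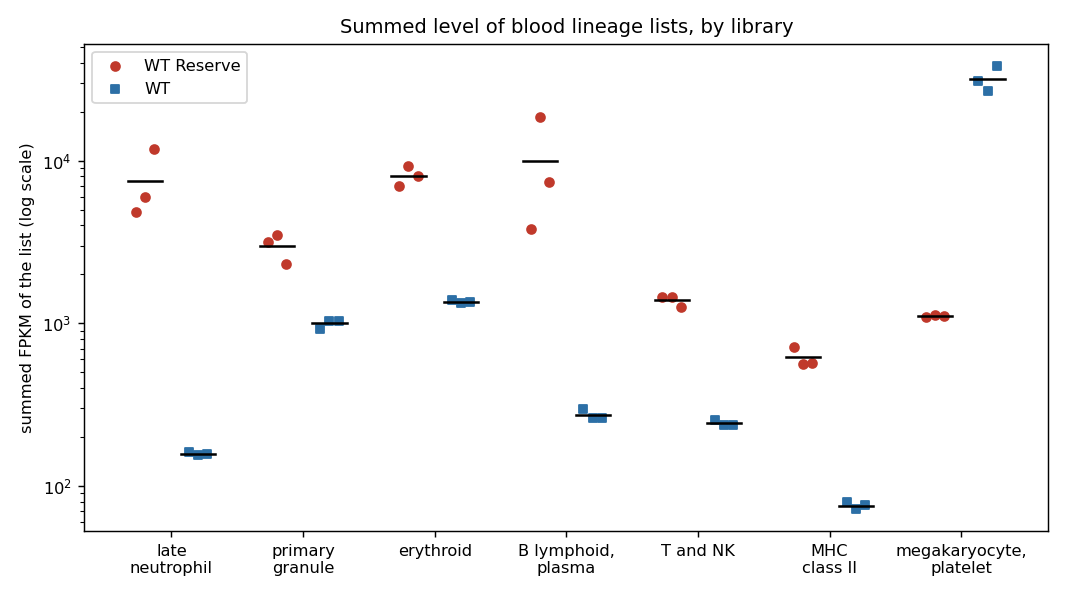
Summed FPKM of the marker lists of blood lineages in each library, log axis, with WT Reserve as red circles left of WT as blue squares and black bars for the group means. The megakaryocyte sum is lower in all 3 WT Reserve libraries, and the neutrophil, erythroid, B lymphoid, T and natural killer and MHC class II sums are higher.

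Genes of the next stage, the multipotent progenitor, were mostly higher. Of 22 tested members 19 rose and 3 fell, with a median of 2.18, and the sum averaged 1974 ± 80.3 FPKM in WT Reserve and 554 ± 12.8 FPKM in WT (SD, n = 3 each). Dntt, the terminal transferase of early lymphoid cells, had 243, 218 and 278 FPKM in WT Reserve, against 1.34, 0.454 and 0.173 FPKM in WT (log2 difference 7.28, SE 0.24, limma adjusted p = 6.84e-14). Ly6d, a surface marker of lymphoid commitment, had 287, 293 and 241 FPKM in WT Reserve, against 1.11, 1.298 and 0.837 FPKM in WT (log2 difference 7.05, SE 0.29, limma adjusted p = 1.88e-12). Il7r, the interleukin-7 receptor, had 28.3, 23.3 and 20.9 FPKM in WT Reserve, against 0.765, 0.499 and 1.096 FPKM in WT (log2 difference 3.82, SE 0.23, limma adjusted p = 1.36e-10). These early lymphoid genes were even among the WT Reserve libraries and near 0 in WT.

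The B lymphoid list was higher as well. Of 24 tested members 23 rose and 1 fell, with a median of 3.84, and the summed level was 3773, 18600 and 7395 FPKM in WT Reserve, against 299, 262 and 263 FPKM in WT. The pre-B cell receptor and its signalling chain were even across libraries. Igll1, the lambda 5 surrogate light chain, named after its values were seen, had 1121, 1335 and 1062 FPKM in WT Reserve, against 10.6, 11.2 and 8.28 FPKM in WT (log2 difference 6.74, SE 0.22, limma adjusted p = 9.96e-14). Cd79a had 324, 384 and 342 FPKM in the WT Reserve libraries, against 4.55, 3.36 and 3.04 FPKM in the WT libraries (log2 difference 6.25, SE 0.21, limma adjusted p = 9.67e-14). It encodes the signalling chain of the B cell receptor, and its adaptor Blnk averaged 142 ± 11.1 FPKM in WT Reserve and 0.543 ± 0.204 FPKM in WT, a log2 difference of 6.53. Ms4a1, the CD20 of mature B cells, averaged 1.02 ± 1.25 FPKM in WT Reserve and 0.107 ± 0.0217 FPKM in WT. The spread of the sum came from antibody transcripts in single libraries, given here after their values were seen. Igkc had 18.6, 2555 and 95.8 FPKM in the WT Reserve libraries, Iglc1 had 0.540, 10654 and 87.2 FPKM, and Jchain, the joining chain of secreted antibody, had 0.454, 1232 and 405 FPKM. WT Reserve 2 held most of the Iglc1 and Jchain transcripts, and WT Reserve 1 held almost none. Xbp1, the plasma cell and unfolded protein factor, was the 1 member that fell, to 70.6 FPKM in WT Reserve, against 172 FPKM in WT.

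In the T and natural killer list 13 of 17 tested members rose and 3 fell, with a median of 2.65, and the sum was 1458, 1446 and 1260 FPKM in WT Reserve, against 254, 238 and 237 FPKM in WT. Among those that rose was a receptor constant region. Tcrg-C1 had 252, 257 and 209 FPKM in the WT Reserve libraries, against 0.0330, 0.134 and 0.120 FPKM in the WT libraries (log2 difference 7.77, SE 0.21, limma adjusted p = 4.39e-15). The gamma constant regions are close copies, so the split of reads among them is uncertain. Lck, the proximal T cell kinase, averaged 88.2 ± 26.9 FPKM in WT Reserve and 7.16 ± 1.10 FPKM in WT, and the adaptor Lat was lower, at 43.4 FPKM in WT Reserve and 157 FPKM in WT. Cd3e, the defining chain of the T cell receptor complex, had at most 0.373 FPKM in WT Reserve and was listed at 0 in WT. Il4, Gzmb and the other members of the mast cell, basophil and eosinophil list were sparse, with 10 of 25 tested. Of the 10 tested, 6 rose and 3 fell, with a median of 0.73. After quantile normalization 4 rose and 3 fell, with a median of 0.56. Cpa3, the carboxypeptidase of mast cells and their progenitors, had 146 FPKM in WT Reserve and 4.32 FPKM in WT (log2 difference 4.80).

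Granule genes of neutrophils were among the largest gains, and several of the late ones were near 0 in WT. Of the 35 late neutrophil genes found, 26 were tested, 25 rose and none fell, and the sum was 4864, 6002 and 11730 FPKM in WT Reserve, against 161, 154 and 158 FPKM in WT. In this and the other lineage lists a member can pass the filter through WT Reserve alone, so the counts are descriptions. S100a8 (chr3:90668978-90670035, GRCm38), a calcium-binding alarmin, had 1611, 2301 and 3896 FPKM in WT Reserve, against 0, 0 and 0.153 FPKM in WT (log2 difference 11.18, SE 0.38, limma adjusted p = 3.31e-12). Ngp, neutrophilic granule protein, had 561, 448 and 1250.4 FPKM in WT Reserve, against 0, 0.119 and 0 FPKM in WT. Ltf, lactoferrin, had 337, 115 and 892 FPKM in WT Reserve, against 2.49, 1.97 and 0.236 FPKM in WT. WT Reserve 3 was the highest library for each of these and WT Reserve 2 was the lowest for Ngp and Ltf, yet no WT library came near any of them. Camp, Chil3 and Lcn2 behaved alike, with log2 differences of 8.90, 7.50 and 6.93. Chil3, Camp and Lcn2 averaged 200.2, 539 and 145 FPKM in WT Reserve, against 0.0510, 0.0260 and 0.127 FPKM in WT. Some of the earlier primary granule genes, such as Mpo, were already present in WT, while Elane was low there. In the primary granule list 12 of 13 rose and 1 fell, with a median of 1.37 (2.06 without WT Reserve 3). The sum of this list averaged 2981 ± 612 FPKM in WT Reserve and 1001 ± 65.7 FPKM in WT (SD, n = 3 each). Elane, neutrophil elastase, had 284, 306 and 119 FPKM in WT Reserve, against 1.07, 0.506 and 1.26 FPKM in WT (log2 difference 6.84, SE 0.34, limma adjusted p = 3.57e-11). Mpo, myeloperoxidase, differed far less, with 186, 112 and 95.1 FPKM in WT Reserve, against 53.7, 60.9 and 65.4 FPKM in WT (log2 difference 1.06, SE 0.27, limma adjusted p = 0.00303). Its call was lost with a pseudocount of 0.1 (limma adjusted p = 0.0799). Plac8 had 762 FPKM in WT Reserve and 18.5 FPKM in WT (log2 difference 5.27), and Ctsc, which activates the granule proteases, was the 1 member that fell, at 36.2 FPKM in WT Reserve and 62.2 FPKM in WT.

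Monocyte and macrophage genes were fewer. Of 33 found, 19 were tested, 14 rose and 2 fell, with a median of 1.72. Ly6c2 had 86.6 FPKM in WT Reserve and 0.405 FPKM in WT (log2 difference 5.96), while Vcan (0.0373 FPKM in WT Reserve and 3.52 FPKM in WT) and F13a1 (1.22 FPKM in WT Reserve and 5.802 FPKM in WT) fell. Csf1r and Adgre1, which define monocytes and macrophages, averaged 0.438 and 0.269 FPKM in WT Reserve, against 0.0687 and 0.0230 FPKM in WT, and were below the filter. MHC class II genes, which present peptides to helper T cells, all rose among the 9 tested, with a median of 2.89 and sums of 714, 565 and 571 FPKM in WT Reserve, against 79.3, 71.9 and 75.97 FPKM in WT. Cd74, the invariant chain, averaged 227 ± 15.6 FPKM in WT Reserve and 6.66 ± 2.46 FPKM in WT and H2-Ab1 averaged 119 ± 28.1 FPKM in WT Reserve and 14.2 ± 1.97 FPKM in WT (SD, n = 3 each), log2 differences of 4.95 and 2.97. B cells and dendritic cells carry class II transcripts. The part of these lineage transcripts in the other differences of the comparison was not tested.

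Erythroid genes were higher, with a set that was listed at 0 in WT. Of 33 tested members 25 rose and 5 fell, with a median of 1.90, and the sum was 6934, 9278 and 8002 FPKM in WT Reserve, against 1381, 1339 and 1351 FPKM in WT. Car1 (chr3:14766216-14808368, GRCm38), carbonic anhydrase 1 of erythroid progenitors, had 2842, 3671 and 3598 FPKM in the WT Reserve libraries and was listed at 0 in all 3 WT libraries (limma adjusted p = 2.28e-20). Cldn13, an erythroid claudin of rodents, had 119.7, 139 and 153 FPKM in WT Reserve and was listed at 0 in WT. Klf1, the master factor of erythroid genes, named after its values were seen, had 169.5, 159 and 206 FPKM in WT Reserve, against 0.666, 0.563 and 0.437 FPKM in WT (log2 difference 6.84, SE 0.19, limma adjusted p = 1.03e-14). These progenitor genes varied little among the WT Reserve libraries. Globin genes varied more, with 148, 343 and 74.2 FPKM for Hba-a1 and 176, 463 and 41.1 FPKM for Hbb-bs in WT Reserve, against 0, 0.0830 and 0.148 and 2.404, 1.395 and 1.69 FPKM in WT. Hba-a1 and Hba-a2 are near-identical copies, so their separate values are uncertain. Alas2, the heme-forming enzyme of late erythroblasts, averaged 2.88 ± 1.03 FPKM in WT Reserve and 0.3903 ± 0.133 FPKM in WT (SD, n = 3 each). The 5 members that fell were Epb41, Nfe2, Tmod1, Mfsd2b and Gypc. Nfe2, a factor shared with megakaryocytes, had 195 FPKM in WT Reserve and 338 FPKM in WT (log2 difference -0.80). The blood group genes Rhd and Kel, with 128 FPKM in WT Reserve and 0.112 FPKM in WT and 58.7 FPKM in WT Reserve and 0.0790 FPKM in WT, hold a GATA motif just upstream of their start.

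The windows below are RefSeq promoter sequence of GRCm38 on the gene's strand, shown because their genes were near 0 in WT, and the capitals mark AGATAA, the letters that GATA1 reads. Rhd lies at chr4:134864471-134864520, plus strand, and Kel at chr6:41704354-41704403, minus strand.
Rhd: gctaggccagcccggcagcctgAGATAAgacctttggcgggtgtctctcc
Kel: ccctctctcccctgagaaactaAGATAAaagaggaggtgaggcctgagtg
AGATAA, searched on both strands of the 250 bases before the start, was in 7 of 24 erythroid promoters (29.2%), in 3 of 24 megakaryocyte promoters (12.5%) and in 11.4% of 27025 RefSeq promoters. A match is a description of letters and not a binding site.

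Every tested gene of cholesterol synthesis was lower in WT Reserve. All 23 tested members fell, with a median of -2.62, and the sum averaged 457 ± 34.8 FPKM in WT Reserve and 3107 ± 126 FPKM in WT (SD, n = 3 each). The pathway runs from acetyl-CoA through the mevalonate steps to squalene and then to the sterol ring, and the SREBP2 factor, made by Srebf2, switches on nearly all of its genes when sterol is short. At the entry, Hmgcs1, which makes HMG-CoA, had 11.3, 11.6 and 9.601 FPKM in WT Reserve, against 139, 137 and 140.5 FPKM in WT (log2 difference -3.57, SE 0.10, limma adjusted p = 6.33e-15). The WT libraries lay close together and no library of the groups overlapped. Fdps, which makes farnesyl pyrophosphate, had 52.1, 66.1 and 51.2 FPKM in WT Reserve, against 585, 573 and 613 FPKM in WT (log2 difference -3.37, SE 0.09, limma adjusted p = 3.75e-15). Of the later enzymes, Sqle and Lss form the ring. Lss had 4.16, 2.596 and 11.3 FPKM in WT Reserve, against 117, 115 and 111 FPKM in WT, with WT Reserve 3 the highest of its group and still far below WT. Cyp51, Msmo1 and Dhcr7 trim it, at 7.82 FPKM in WT Reserve and 145 FPKM in WT, 46.2 FPKM in WT Reserve and 532 FPKM in WT and 10.4 FPKM in WT Reserve and 139 FPKM in WT. Cyp51 overlaps Akap9 on the other strand, and Akap9 averaged 89.4 ± 19.2 FPKM in WT Reserve and 34.8 ± 3.52 FPKM in WT. The regulators went the same way. Srebf2 averaged 5.62 ± 0.3101 FPKM in WT Reserve and 35.9 ± 2.25 FPKM in WT and Insig1, which holds the SREBP complex in the endoplasmic reticulum, 4.96 ± 0.719 FPKM in WT Reserve and 35.5 ± 0.4095 FPKM in WT. Members other than Fdps, Hmgcs1, Cyp51, Sqle and Dhcr7 were named after their values were seen.

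The promoter of Hmgcs1 is printed because it is the one promoter of the list in which the sterol element's letters were found. The bases just after its RefSeq start were not found in a GENCODE transcript of the gene, so the position of this start is uncertain. The capitals mark TCACNCCAC, with N for any base, in RefSeq sequence of GRCm38 at chr13:119690192-119690244, plus strand.
Hmgcs1: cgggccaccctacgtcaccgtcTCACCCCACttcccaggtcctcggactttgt
The letters were found, on either strand of the 250 bases before the start, in 1 of 16 promoters of the pathway that had an entry (6.25%) and in 1.22% of all promoters.

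**Figure D4:**
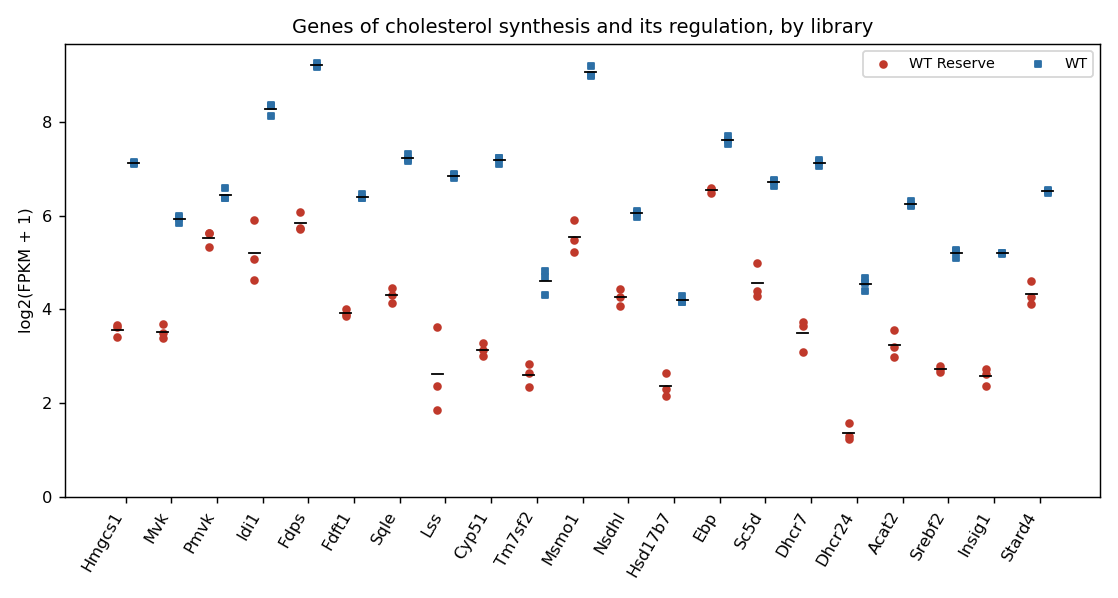
log2(FPKM + 1) of genes of cholesterol synthesis and its regulation in each library, with WT Reserve as red circles left of WT as blue squares and black bars for the group means. Every gene shown is lower in WT Reserve, with Hmgcs1 at 9.60 to 11.6 FPKM in WT Reserve, against 137 to 140.5 FPKM in WT.

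Genes of glycolysis and glucose transport were mostly lower. Of 32 tested members 22 fell and 4 rose, with a median of -1.10, and the sum averaged 4056 ± 243 FPKM in WT Reserve and 11170 ± 349 FPKM in WT (SD, n = 3 each). The glucose transporter Slc2a1 had 4.14, 4.098 and 5.65 FPKM in WT Reserve, against 38.4, 36.5 and 41.5 FPKM in WT (log2 difference -2.83, SE 0.12, limma adjusted p = 2.29e-12). Slc16a3, the lactate exporter, had 0.424, 0.0530 and 0.969 FPKM in WT Reserve, against 66.9, 71.5 and 104 FPKM in WT (log2 difference -5.80, SE 0.30, limma adjusted p = 6.51e-11). Transcripts of these transporters, at both ends of the pathway, were lower in every WT Reserve library than in any WT library. Between them, the phosphofructokinase Pfkp was at 19.3 FPKM in WT Reserve and 116 FPKM in WT, Aldoa at 379.8 FPKM in WT Reserve and 1253 FPKM in WT and Pgam1 at 111 FPKM in WT Reserve and 404 FPKM in WT, log2 differences of -2.53, -1.72 and -1.85. Pgam2 (10.96 FPKM in WT Reserve and 0.547 FPKM in WT) and Galm (6.16 FPKM in WT Reserve and 2.11 FPKM in WT) rose, from low levels. Nuclear genes of oxidative phosphorylation were closer to the background of all genes. There, 39 of 77 rose and 9 fell, with a median of 0.22. After quantile normalization 29 rose and 18 fell, with a median of 0.05. Sdhb, of complex II, averaged 456 ± 28.8 FPKM in WT Reserve and 301 ± 3.996 FPKM in WT and Atp5a1, of the ATP synthase, averaged 625 ± 88.7 FPKM in WT Reserve and 1020 ± 32.9 FPKM in WT, so members moved in both directions. Of 12 transcripts encoded by the mitochondrial genome 6 rose and 0 fell, with a median of 0.36 that was 0.06 once the trend with transcript length was removed. After quantile normalization 1 rose and 1 fell.

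Targets of p53, the tumour suppressor that answers DNA damage, were lower. Of 31 tested members 28 fell and 1 rose, with a median of -1.80. Cdkn1a, the p21 brake on the cell cycle, had 31.05, 21.1 and 34.9 FPKM in WT Reserve, against 194, 207 and 233 FPKM in WT (log2 difference -2.85, SE 0.21, limma adjusted p = 3.36e-09). Ei24 had 5.81, 5.75 and 4.796 FPKM in WT Reserve, against 57.4, 58.6 and 54.5 FPKM in WT (log2 difference -3.17, SE 0.12, limma adjusted p = 1.83e-13). The groups of both genes were well apart, and the WT libraries were close to each other. Of the death genes, Pmaip1 was at 0.259 FPKM in WT Reserve and 5.89 FPKM in WT, and Bax (80.97 FPKM in WT Reserve and 329.7 FPKM in WT) and Bbc3 (2.13 FPKM in WT Reserve and 19.3 FPKM in WT), named after their values were seen, were lower too. Sesn1, a stress sensor, was the 1 member that rose, at 36.3 FPKM in WT Reserve and 22.96 FPKM in WT (log2 difference 0.63). Genes of the unfolded protein and integrated stress responses fell with them. Of 26 tested 18 fell and 3 rose, with a median of -0.96. Hspa5, the chaperone BiP of the endoplasmic reticulum, had 209, 181 and 249.6 FPKM in WT Reserve, against 677, 635 and 698 FPKM in WT (log2 difference -1.66, SE 0.11, limma adjusted p = 6.31e-10). Edem1, which sends misfolded glycoproteins to degradation, had 6.33, 7.81 and 7.71 FPKM in WT Reserve, against 155, 127 and 147 FPKM in WT (log2 difference -4.12, SE 0.16, limma adjusted p = 4.29e-13). Both were lower in each WT Reserve library than in any WT library. Of the 3 members that rose, Ddit3 (CHOP) had 41.6 FPKM in WT Reserve and 14.97 FPKM in WT and Ppp1r15a (GADD34) had 79.1 FPKM in WT Reserve and 22.5 FPKM in WT, log2 differences of 1.41 and 1.75. Mars overlaps Ddit3 on the other strand. Cytosolic chaperones were mixed, with 3 of 22 members of the heat shock list higher and 11 lower. Hsph1 was at 17.9 FPKM in WT Reserve and 63.6 FPKM in WT.

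Dnajc3, another chaperone of the reticulum, averaged 17.6 FPKM in WT Reserve and 45.1 FPKM in WT. Its promoter and that of Hspa5 are printed because they hold the endoplasmic reticulum stress element. For Dnajc3 the bases just after the RefSeq start were not found in a GENCODE transcript of the gene, so the position of its start is uncertain. The capitals mark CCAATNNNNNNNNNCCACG in RefSeq sequence of GRCm38. Hspa5 lies at chr2:34772003-34772065, plus strand, and Dnajc3 at chr14:118937805-118937867, plus strand.
Hspa5: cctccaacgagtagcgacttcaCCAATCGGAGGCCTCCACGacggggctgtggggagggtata
Dnajc3: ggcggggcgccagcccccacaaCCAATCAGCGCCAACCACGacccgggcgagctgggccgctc
The letters were in 2 of 26 promoters of the list (7.69%) and in 0.13% of all promoters, searched on both strands.

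Interferon response genes were higher in most members. Of 51 tested 41 rose and 2 fell, with a median of 1.36, and the sum averaged 5985 ± 796 FPKM in WT Reserve and 3831 ± 189 FPKM in WT (SD, n = 3 each). Interferons bind their receptors and switch on antiviral genes through the interferon-stimulated response element. Xaf1, a death-linked response gene, had 55.2, 60.9 and 47.9 FPKM in WT Reserve, against 3.34, 4.56 and 2.53 FPKM in WT (log2 difference 3.65, SE 0.19, limma adjusted p = 2.15e-11). Ifi27l2a had 54.6, 62.02 and 58.3 FPKM in WT Reserve, against 2.87, 5.41 and 4.404 FPKM in WT (log2 difference 3.53, SE 0.18, limma adjusted p = 1.62e-11). No library of either group overlapped the other for these members. Zbp1, a sensor of unusual nucleic acid, averaged 10.5 ± 2.24 FPKM in WT Reserve and 0.2597 ± 0.0716 FPKM in WT and Rtp4 averaged 33.7 ± 12.3 FPKM in WT Reserve and 2.74 ± 0.288 FPKM in WT, log2 differences of 3.18 and 3.16. Irf7, the factor that amplifies the response, was named after its values were seen and averaged 23.1 ± 5.34 FPKM in WT Reserve and 3.71 ± 1.59 FPKM in WT (log2 difference 2.38). Ifitm3, which blocks viral entry, was 1 of the 2 that fell, to 583 FPKM in WT Reserve, against 1319 FPKM in WT (log2 difference -1.21). The other was Tap1, whose log2 difference of -0.64 was -0.38 (limma adjusted p = 0.126) without WT Reserve 2. Of the 18 MHC class I and antigen processing genes 11 rose and 3 fell, with a median of 0.65. B2m, the light chain, averaged 4068 ± 1046 FPKM in WT Reserve and 1716 ± 61.3 FPKM in WT, and Psmb8, of the immunoproteasome, averaged 499 ± 38.8 FPKM in WT Reserve and 138 ± 17.8 FPKM in WT (log2 difference 1.85). Tap2 (log2 difference -1.05) and Tapbp (log2 difference -0.60) fell, and without WT Reserve 2 Tap2 was at -0.58 and Tapbp lost its call (-0.26, limma adjusted p = 0.0863).

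Windows of Gbp2 (10.1 FPKM in WT Reserve and 2.24 FPKM in WT) and Igtp (26.8, 33.5 and 24.4 FPKM in WT Reserve and 18.5, 19.5 and 19.03 FPKM in WT), 2 GTPases of the response, show the element in its 2 orientations. The capitals mark GAAANNGAAA, which reads TTTCNNTTTC on the other strand, in RefSeq sequence of GRCm38. Gbp2 lies at chr3:142620582-142620635, plus strand, and Igtp at chr11:58199500-58199553, plus strand.
Gbp2: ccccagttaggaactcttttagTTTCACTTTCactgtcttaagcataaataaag
Igtp: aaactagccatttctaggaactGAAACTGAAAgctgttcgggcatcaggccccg
The letters were in 19 of 38 promoters of the list (50.0%) and in 3.46% of all promoters. Gbp2 and Igtp rose, but Isg15, Oas1a, Oas1g, Stat2, Ifitm2, Irgm2 and Bst2 also held the letters and had no call. Whether the element bears on the rise was not tested.

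Immediate early genes, which respond within minutes to growth factors, stress or handling, were 16 higher and 9 lower among 31 tested, with a median of 0.76. Fos had 82.3, 54.6 and 68.3 FPKM in WT Reserve, against 0.599, 0.859 and 1.92 FPKM in WT (log2 difference 5.06, SE 0.21, limma adjusted p = 9.39e-13). Dusp1, the phosphatase that ends MAP kinase signals, had 94.1, 78.3 and 86.9 FPKM in WT Reserve, against 3.41, 3.22 and 4.16 FPKM in WT (log2 difference 4.25, SE 0.20, limma adjusted p = 8.67e-12). Fos and Dusp1 were high in all 3 WT Reserve libraries, while Gadd45g went the other way, at 12.3 FPKM in WT Reserve and 107 FPKM in WT (log2 difference -3.01). In the NF-kappaB list 15 of 24 rose and 5 fell, with a median of 0.78. The inhibitor Nfkbia averaged 78.6 ± 9.13 FPKM in WT Reserve and 18.8 ± 2.98 FPKM in WT (log2 difference 2.01) and its relative Bcl3 averaged 7.199 ± 0.724 FPKM in WT Reserve and 40.7 ± 6.08 FPKM in WT (log2 difference -2.34). Metallothionein 2 (Mt2), which binds zinc and is among the 15 genes that rose most, had 136, 147 and 159 FPKM in WT Reserve, against 0.272, 0 and 0.306 FPKM in WT (log2 difference 6.96, SE 0.25, limma adjusted p = 1.24e-13).

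Genes of proliferation were more often higher than lower. Of 49 DNA replication genes 31 rose and 5 fell, with a median of 0.45, and of 57 mitotic genes 25 rose and 6 fell, with a median of 0.21. The replication count of 5 lower genes became 8 without WT Reserve 3. Pcna, the sliding clamp, averaged 322 ± 39.5 FPKM in WT Reserve and 175 ± 5.69 FPKM in WT (log2 difference 0.87), and Pola1, of the primase complex, averaged 34.2 ± 1.96 FPKM in WT Reserve and 16.4 ± 0.676 FPKM in WT (log2 difference 1.02). Mki67 had 31.1, 28.9 and 35.3 FPKM in WT Reserve, against 13.6, 15.2 and 13.6 FPKM in WT (log2 difference 1.11, SE 0.12, limma adjusted p = 2.79e-07). Plk1, the mitotic kinase, was lower in every WT Reserve library than in any WT library, averaging 46.4 ± 8.396 FPKM in WT Reserve and 78.6 ± 4.41 FPKM in WT (log2 difference -0.76, SE 0.12, limma adjusted p = 2.71e-05), so the mitotic list did not move as 1. Replication-dependent histones, made in S phase, were higher in 26 of 35 tested members and lower in 1, with a median of 0.90 (0.74 with the length trend removed). Hist1h4d averaged 513 ± 153 FPKM in WT Reserve and 136 ± 6.44 FPKM in WT (log2 difference 1.87). These transcripts are short, and transcripts up to 500 bases had a median of 0.40 over all genes. The same holds for cytosolic ribosomal proteins, of which 61 of 80 rose and 3 fell, with a median of 0.51 (0.43 with the length trend removed and 0.35 after quantile normalization, where 6 fell). Rpl13a averaged 1320 ± 238 FPKM in WT Reserve and 319 ± 27.1 FPKM in WT (log2 difference 2.04), and Rpl6 fell, at 660.4 FPKM in WT Reserve and 924 FPKM in WT. Genes of ribosome assembly had 10 members higher and 13 lower of 37, with a median of 0.00. The count of those higher became 5 without WT 3. Rrn3, which recruits RNA polymerase I, was at 7.42 FPKM in WT Reserve and 18.8 FPKM in WT (log2 difference -1.24).

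The Hoxb cluster, which holds the DERARE, was little expressed. Of 12 Hoxb genes found, 2 were tested. Hoxb2 had 2.16, 1.94 and 1.17 FPKM in WT Reserve, against 3.38, 3.396 and 3.104 FPKM in WT (log2 difference -0.66, SE 0.19, limma adjusted p = 0.00602), and the antisense gene Hoxb5os averaged 1.12 ± 0.682 FPKM in WT Reserve and 1.203 ± 0.136 FPKM in WT without a call. Hoxb4, the factor that expands stem cells when forced, was below the filter at 0.334 FPKM in WT Reserve and 0.310 FPKM in WT. In the Hoxa cluster 3 of 4 tested members rose. Hoxa9, the main Hox gene of stem and progenitor cells, had 30.5, 26.6 and 21.4 FPKM in WT Reserve, against 10.99, 10.2 and 8.12 FPKM in WT (log2 difference 1.33, SE 0.20, limma adjusted p = 1.67e-05). Hoxa5 (log2 difference 0.61) lost its call without each of 3 of the libraries (limma adjusted p = 0.0577 to 0.0854). Among the genes that handle or bind retinoic acid 5 of 18 tested rose and 8 fell. Rxrg, a retinoid X receptor, averaged 8.74 ± 2.73 FPKM in WT Reserve and 0.0267 ± 0.0462 FPKM in WT (log2 difference 3.21), and Aldh1a1, which makes retinoic acid, averaged 25.1 ± 1.83 FPKM in WT Reserve and 51.7 ± 2.63 FPKM in WT (log2 difference -1.02). Niche signalling lists held calls in both directions. Canonical Wnt had 3 higher and 8 lower of 16, noncanonical Wnt 5 and 8 of 23, Notch 5 and 9 of 17, and TGF-beta and BMP 8 and 9 of 27 (5 higher after quantile normalization). Tcf7 and Lef1, Wnt factors that are also lymphoid, rose to 42.9 and 14.6 FPKM in WT Reserve, against 2.28 and 0.795 FPKM in WT. The inhibitors of DNA binding parted, with Id1 at 3.62 FPKM in WT Reserve and 50.5 FPKM in WT (log2 difference -3.48) and Id3 at 53.5 FPKM in WT Reserve and 2.53 FPKM in WT (log2 difference 3.96). Among cytokine receptors Ifngr1, which binds interferon gamma, was higher, at 131 FPKM in WT Reserve and 28.95 FPKM in WT (log2 difference 2.14). Of the chromatin regulators, the de novo DNA methyltransferase Dnmt3b (7.89 FPKM in WT Reserve and 25.1 FPKM in WT) and the Polycomb proteins Eed (58.4 FPKM in WT Reserve and 192 FPKM in WT) and Jarid2 (6.04 FPKM in WT Reserve and 20.5 FPKM in WT) were lower, in a list with 20 of 39 higher and 9 lower. Lysosome and autophagy genes had 7 higher and 15 lower of 38, adhesion and migration genes 11 and 13 of 26, and cytokine receptors and Socs genes 14 and 16 of 36.

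The groups also differed in transcripts of the sex chromosomes. Xist, which silences 1 X chromosome in female cells, had 0.802, 0.0150 and 0.186 FPKM in WT Reserve, against 2.46, 2.76 and 2.47 FPKM in WT. Eif2s3y, on the Y chromosome, had 76.3, 98.9 and 89.1 FPKM in WT Reserve, against 20.4, 19.4 and 18.6 FPKM in WT (log2 difference 2.12, SE 0.20, limma adjusted p = 5.88e-08), and Ddx3y, Kdm5d and Uty were higher in WT Reserve too. Both sexes' transcripts were present in every WT library, and WT Reserve 2 had almost no Xist. The part of a different mix of sexes in the other results was not tested. Malat1, a nuclear RNA, averaged 8764 ± 1477 FPKM in WT Reserve and 1960 ± 348 FPKM in WT (SD, n = 3 each), and Neat1, of the paraspeckles, was lower, at 7.77 FPKM in WT Reserve and 18.7 FPKM in WT, in a list of nuclear retained RNAs with 6 of 9 higher and 2 lower.

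The reserve contrast in DERARE knockout cells shares no library with the wild type contrast, but both use the same estimate of the spread, from all 18 libraries. The genes tested were chosen by their FPKM in the wild type libraries alone. A batch common to both reserve groups cannot be told apart from the reserve label. On the same 12777 genes, 3150 were higher in KO Reserve (24.7%) and 5583 were lower (43.7%), with a median of -0.25. Median-ratio scaling gave 4489 higher and 4254 lower and a median of 0.03, so the split depends on the scaling. Of the genes that rose in wild type, 2393 rose in knockout as well, 58.2% of the wild type list and 76.0% of the knockout list, and 403 (9.8%) fell there. Of those that fell in wild type, 3439 fell in knockout, 87.9% and 61.6% of the lists, and 43 (1.1%) rose. These shares depend on the scaling too. After median-ratio scaling 71.2% of the genes that rose in wild type rose in knockout and 224 (5.44%) fell, and 77.2% of those that fell in wild type fell in knockout and 164 (4.17%) rose. After quantile normalization the shares were 70.4% and 74.0%, with 197 (5.02%) and 148 (3.54%) in the opposite direction. The files hold no direct measure of the deleted element, so the genotype labels were not checked. Medians of the lineage and sterol lists had the same sign in both. The megakaryocyte and platelet list had -4.03 in wild type and -4.44 in knockout, cholesterol synthesis -2.62 and -3.36, and the erythroid list 1.90 and 2.40. Pf4 averaged 64.2 FPKM in KO Reserve and 13350 FPKM in KO Ctrl, and Hmgcs1 7.05 FPKM in KO Reserve and 159 FPKM in KO Ctrl.

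The test of the difference between the reserve contrasts called 3307 genes with a more positive difference in wild type (25.9%) and 1107 with a more negative one (8.66%), 34.5% in all. The median over all genes was 0.245, and -0.03 after median-ratio scaling, which gave 1948 and 2304. Of the stem cell lists, 24 of 28 stem cell surface genes and 20 of 29 stem cell transcription factors were more positive in wild type (19 and 17 after median-ratio scaling), and their knockout medians were -2.06 and -0.93 (the second -0.59 with the length trend removed). Procr had a log2 difference of 1.65 in wild type and -1.53 in knockout, where it averaged 1.42 FPKM in KO Reserve and 6.28 FPKM in KO Ctrl. Hlf had 1.16 and -1.65, and Hoxa9 1.33 and -1.61. Ly6a had 21.9 FPKM in KO Reserve and 185 FPKM in KO Ctrl (log2 difference -3.02), and Cd34 had 10.7 FPKM in KO Reserve and 402 FPKM in KO Ctrl (log2 difference -5.15). Interferon genes differed in the same direction, with 37 of 51 members more positive in wild type and 0 more negative (29 and 1 after median-ratio scaling). In knockout 15 rose and 14 fell, with a median of 0.10, but 22 rose and 9 fell (median 0.30) after median-ratio scaling, 21 and 11 after quantile normalization and 26 and 10 with the length trend removed. Xaf1 averaged 9.98 FPKM in KO Reserve and 10.4 FPKM in KO Ctrl and had no call there. Ribosomal proteins and oxidative phosphorylation genes went the other way, since 75 of 80 and 62 of 77 members were more negative in wild type, and their knockout medians were 1.31 and 0.87. With quantile normalization, 56 and 44 were more negative and the knockout medians were 0.71 and 0.42. Mpo, with a difference between the contrasts of -5.61, had 68.8, 111 and 173 FPKM in KO Reserve, against 0.273, 0.0110 and 0.0100 FPKM in KO Ctrl.

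**Figure D5:**
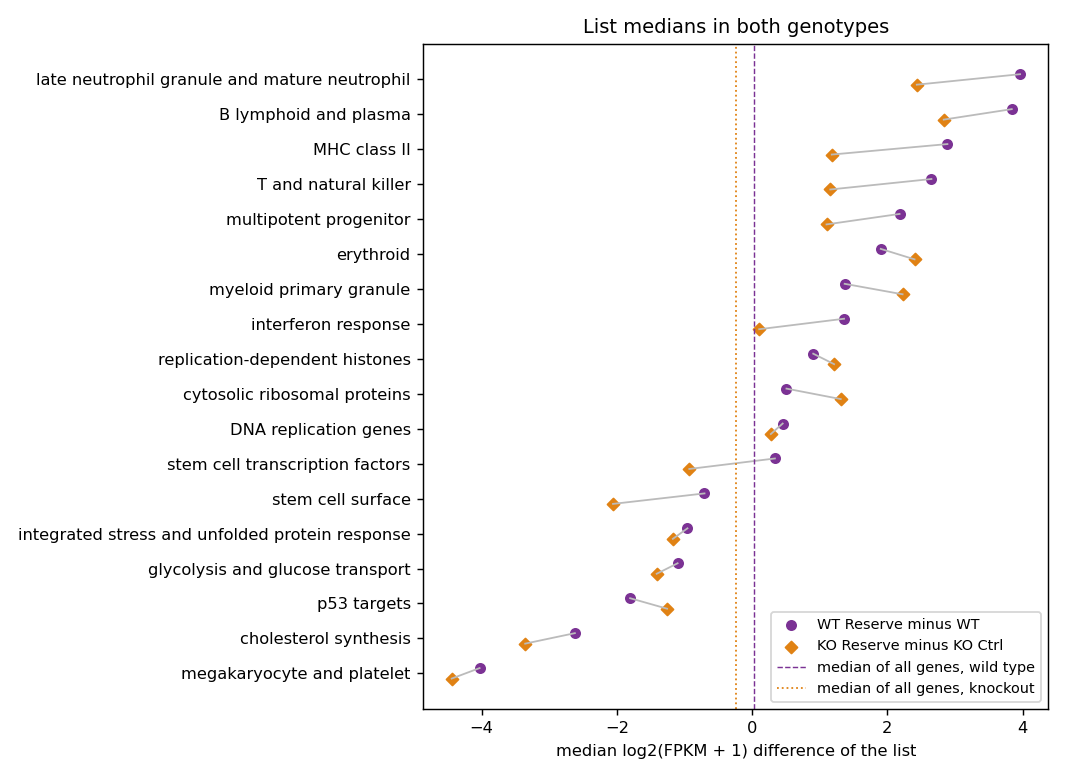
Median log2(FPKM + 1) difference of gene lists, WT Reserve minus WT as purple circles and KO Reserve minus KO Ctrl as orange diamonds, joined by grey lines, with a dashed line for the median of all genes in wild type (0.03) and a dotted line for that in knockout (-0.25). The megakaryocyte and platelet list lies at -4.03 and -4.44, while stem cell transcription factors lie at 0.34 in wild type and -0.93 in knockout.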

How the data were processed

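The authors deposited FPKM values per gene, made with Cufflinks after TopHat2 2.0.10 alignment to mm10 and CASAVA 1.8.2 base calling, per the submitters' processing notes. Per the labels' protocols, cells were sorted into plates and amplified with SMARTer chemistry, which does not mark strand. The table gives no counts. The depth was taken from the size of 1-fragment steps among low values, and intervals from it would cover counting error only. Of 44349 genes, 16 had missing cells and were left out. Gene IDs were matched to GENCODE M21 (43938 matched, 411 not).

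All 18 libraries were fitted with limma 3.58.1 (R 4.3.3, trend and robust moderation) on log2(FPKM + 1), with 1 mean per group and contrasts for WT Reserve minus WT, KO Reserve minus KO Ctrl and their difference. Genes needed 1 FPKM in 3 of the 6 wild type libraries, and calls used a Benjamini-Hochberg adjusted p below 0.05 over all 12777 genes. An exact permutation test of 3 against 3 cannot go below 0.1 and was not used. On simulated data the fit called 85% of 100 genes changed by 1 and 96% of 100 changed by 2 on the log2 scale, with 13 false calls. There every library had the WT means with normal noise, apart from the changed genes, whose WT mean was above 2 on that scale. In the data 62.8% of genes were called, so the simulated figures do not give the error rates of the comparison.

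The comparison, the 45 gene lists and the rules were chosen with earlier results of these data known. Named were the genes of the gate, the Hoxb cluster and the sex chromosomes, the 15 that rose and the 15 that fell most with a mean of at least 5 FPKM, up to 5 called members per list with up to 2 of the rarer direction, defining markers near 0, the 5 strongest differences between genotypes in each direction and the 5 highest genes of each group. Other genes were chosen after their values were seen, among them Procr, Slamf1, Hlf, Meis1, Mecom, Mllt3, Gata2, Vwf, Gata1, Gp6, Igll1, Igkc, Iglc1, Jchain, Klf1, Hbb-bs, Alas2, Kel, Lss, Msmo1, Srebf2, Insig1, Bax, Bbc3, Dnajc3, Irf7, Gbp2 and Igtp. Some genes that the rules name are not reported here. Promoters are RefSeq sequence of GRCm38.p6, with an entry for 167 of 219 genes of the lists searched for motifs. Alternatives changed the normalization, pseudocount, filter, libraries fitted, variance model, library weights, replicate block, size of change, transcript length, genes tested and each replicate.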

Additional observations from a re-analysis of the deposited data

Results flagged for a closer look

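Described here are 13 of the named genes whose reserve difference was not the same in wild type and DERARE knockout cells. The measure is limma's test of the difference between the contrasts, which called 34.5% of all 12777 genes, with Procr and Hlf also among them. All but Kit, Ly6a and Flt3 were picked for being among the 5 strongest in each direction, so their small p-values follow from that choice. The values below are log2 differences in wild type minus those in knockout, beside a median of 0.245 over all genes, which was -0.03 after median-ratio scaling.

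Among the genes of the sort gate, Ly6a differed by 3.70 (limma adjusted p = 2.22e-07), Cd34 by 2.76 (9.99e-08), Flt3 by 2.37 (1.74e-05) and Kit by 0.83 (0.0182). Kit lost this call under each other scaling, at 0.53 (limma adjusted p = 0.106) after quantile normalization, 0.50 (limma adjusted p = 0.122) after median-ratio scaling and 0.47 (limma adjusted p = 0.154) with the length trend removed, and also without WT 3 (adjusted p = 0.0575) or KO Ctrl 2 (adjusted p = 0.0513), while the other 3 kept theirs under those scalings. Flt3 averaged 15.5 FPKM in WT Reserve and 0.516 FPKM in WT and 3.93 FPKM in KO Reserve and 1.39 FPKM in KO Ctrl, and Kit averaged 28.8 FPKM in WT Reserve and 15.8 FPKM in WT and 29.5 FPKM in KO Reserve and 29.4 FPKM in KO Ctrl.

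More positive in wild type were Xaf1 (3.73), Rgs2 (3.16), Serpina3g (2.76) and Gcnt2 (2.75), with limma adjusted p = 1.18e-07, 9.99e-08, 1.18e-07 and 9.99e-08. Rgs2, which dampens G protein signals, averaged 58.9 FPKM in WT Reserve and 13.1 FPKM in WT and 13.2 FPKM in KO Reserve and 28.6 FPKM in KO Ctrl. Serpina3g, a protease inhibitor, averaged 184 FPKM in WT Reserve and 514 FPKM in WT and 21.9 FPKM in KO Reserve and 427 FPKM in KO Ctrl. Gcnt2, a glycosyltransferase, averaged 14.2 FPKM in WT Reserve and 7.55 FPKM in WT and 2.35 FPKM in KO Reserve and 11.6 FPKM in KO Ctrl, and it overlaps A730081D07Rik on the other strand (4.49 FPKM in WT Reserve and 2.83 FPKM in WT).

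More negative in wild type was Mpo (-5.61, limma adjusted p = 1.23e-07), which averaged 131 FPKM in WT Reserve and 59.96 FPKM in WT and 118 FPKM in KO Reserve and 0.0980 FPKM in KO Ctrl. So were Rps2 (-1.30), Glrx5 (-1.26), Nme1 (-1.12) and Hypk (-0.995), with limma adjusted p = 1.72e-06, 3.95e-07, 2.63e-06 and 3.19e-06. Rps2, a ribosomal protein with many processed copies in the genome, averaged 486 FPKM in WT Reserve and 447 FPKM in WT and 1022 FPKM in KO Reserve and 378 FPKM in KO Ctrl. Glrx5, a glutaredoxin of iron-sulfur assembly, averaged 469 FPKM in WT Reserve and 257 FPKM in WT and 938 FPKM in KO Reserve and 213 FPKM in KO Ctrl. After quantile normalization the differences of Rps2, Nme1 and Hypk were -0.84, -0.72 and -0.57. Rps2 overlaps Snhg9 on the other strand (64.4 FPKM in WT Reserve and 19.9 FPKM in WT), and Hypk overlaps Serinc4 (17.03 FPKM in WT Reserve and 22.2 FPKM in WT). What sets the genotypes apart was not tested.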

How the results depend on the processing

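In WT Reserve against WT the counts of 4113 higher and 3912 lower genes moved by less than 1.5 times under the alternatives, except when a log2 change above 1 was asked for, which called 851 and 869 (KO Reserve against KO Ctrl, 669 and 1569, and the difference between the contrasts, 195 and 7). For the difference between the contrasts, quantile normalization gave 1901 more positive and 2141 more negative, median-ratio scaling 1948 and 2304, and removal of the length trend 1955 and 2125, beside 3307 and 1107. The cause was not tested. Leaving out each library in turn gave 3700 to 3946 higher and 3564 to 3847 lower in wild type, 2914 to 3038 and 5210 to 5578 in knockout, and 2751 to 3700 and 904 to 1207 for the difference. With no filter, 26651 genes were tested and 5319 and 4154 called.

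With the replicate number as a block 4121 rose and 3901 fell. Same-numbered WT Reserve and WT libraries had deviations correlated at 0.00149, -0.052 and -0.0657. These values gave no sign that the numbers pair the libraries, but they cannot exclude a shared animal or day.

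Among named genes, 4768 gene and setting combinations kept their direction and side of the threshold, 122 lost the call, 6 gained one and 1 turned round, mt-Atp8, at -0.019 with the length trend removed against 0.59. With quantile normalization mt-Cytb (0.24, limma adjusted p = 0.112) and mt-Nd5, which overlaps mt-Nd6 on the other strand (0.15, limma adjusted p = 0.293) lost theirs. List medians kept their sign under the settings tried, except stem cell transcription factors, quiescence genes, ribosome biogenesis, lysosome, and DNA methylation and Polycomb genes. Leaving out 1 library changed counts of lower members by over 1.5 times for quiescence genes (8, and 5 without WT 2), MHC class I genes (3, and 1 without WT Reserve 2) and interferon genes (2, and 1 to 3).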

Other observations

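Ctsg, cathepsin G of the primary granules, had 107, 112 and 25.3 FPKM in the WT Reserve libraries, against 23.5, 26.4 and 26.8 FPKM in the WT libraries. In knockout cells it had 41.7, 94.4 and 127 FPKM in KO Reserve and was listed at 0 in all 3 KO Ctrl libraries. Like Mpo, it was present in WT and near 0 in KO Ctrl, while both reserve groups held it. Meis1, a partner of Hox proteins, averaged 13.5 FPKM in KO Reserve and 91.02 FPKM in KO Ctrl, against 53.5 FPKM in WT Reserve and 97.7 FPKM in WT.

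After their values were seen, 2 transcripts stood out for opposite patterns. AA465934, a noncoding transcript at chr11:83291699-83294632 (GRCm38), averaged 19.3 ± 3.15 FPKM in WT Reserve and 174 ± 16.2 FPKM in WT, and in knockout cells 1208 ± 221 FPKM in KO Reserve and 3.29 ± 1.13 FPKM in KO Ctrl (SD, n = 3 each). In the Wnt5a groups of the series, it averaged 4.302 ± 2.21 FPKM in KO Wnt5a and 160.3 ± 17.6 FPKM in Wnt5a. Eif5al3-ps, a processed pseudogene whose reads cannot be told apart from those of other copies, averaged 3.401 ± 2.06 FPKM in WT Reserve and 411 ± 9.21 FPKM in WT, and 324 ± 61.6 FPKM in KO Reserve and 1.03 ± 0.365 FPKM in KO Ctrl. In the Wnt5a groups Eif5al3-ps averaged 3.078 ± 1.398 FPKM in KO Wnt5a and 370.9 ± 20.89 FPKM in Wnt5a. For both transcripts, every WT Reserve library was below every WT library, and every KO Reserve library was above every KO Ctrl library. By these transcripts WT Reserve resembled KO Ctrl and KO Reserve resembled WT in being low or high, which does not follow the genotype labels. Whether the labels of the reserve libraries hold was not tested. WT Reserve against WT and the comparison of the reserve contrasts between genotypes both rest on them.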
